A study of Mus musculus with 6 samples.

Results

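The ETS, SOX and GATA transcription factors of vascular endothelium were examined in endothelial cells (ECs) sorted from mouse tumors. The group was set by name and holds 10 genes, Erg, Fli1, Ets1, Elk3, Tal1, Gata2, Sox7, Sox17, Sox18 and Lmo2, of the 24346 gene symbols in the data, and all 10 were found under these symbols. MC38 cells, a mouse colon carcinoma line, were placed under the skin of C57BL/6 mice that were wild-type (WT) or knocked out for Apelin (Apelin-KO) and were 8 to 10 weeks old, and the tumor cells themselves were not altered. On day 19 the tumors were taken and dissociated, and cells positive for CD31 and negative for CD45 were sorted as tumor ECs. RNA-sequencing was available for 3 WT samples and 3 Apelin-KO samples, and the titles of all 6 name saline, an agent that the sequencing methods of the study do not mention. Nothing in the labels says that each sample is a separate mouse, so p-values measure only the spread between these samples. The question put to the data was whether the factors that set endothelial identity differ between tumor ECs with and without Apelin.

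ETS factors are DNA-binding proteins that recognise a GGAA core, and nearly every endothelial enhancer carries such sites. ERG, FLI1 and ETS1 activate endothelial genes such as the VE-cadherin gene Cdh5, while ELK3 is an ETS factor with repressor activity. SOX7, SOX17 and SOX18 form the SOXF subfamily, which acts in arterial, venous and lymphatic differentiation. GATA2, the basic helix-loop-helix factor TAL1 and the adaptor LMO2 can sit in a single complex, in which LMO2 bridges DNA-bound partners and does not bind DNA itself. Several of these factors are also used by blood cells, which makes the purity of the sort relevant to their levels.

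Expression is given as FPKM, a read level corrected for transcript length and for sequencing depth, which allows levels to be compared between genes. The depth of the libraries, estimated from the step that a single read makes in low FPKM, lay between 8990000 and 10250000 reads. Apln, the gene removed, was between 432 and 504 FPKM in WT and between 9.96 and 24.3 FPKM in Apelin-KO samples, as its label requires. Endothelial markers were strongly expressed in every sample, with Pecam1, which encodes the CD31 used for sorting, between 553 and 846 FPKM. Summed over 15 endothelial markers that include no member of the group, FPKM were between 4393 and 5163 in WT and between 5182 and 5424 in Apelin-KO samples, so that the groups did not overlap, while the geometric mean of the same markers overlapped by a small margin between WT 3 and Apelin-KO 2. Summed over 20 hematopoietic markers, FPKM were 526, 887 and 271 in WT 1, 2 and 3 and between 123 and 324 in Apelin-KO samples, so that WT 3 lay within the Apelin-KO range. None of the 20 was at 0 in all samples, and all 13 that were tested were higher in WT on average. Of these, 7 had an unadjusted p-value under 0.05, a count that ran from 1 without Apelin-KO 1 to 13 without WT 3. In these bulk samples, fewer ECs among the sorted cells and less RNA of a gene per EC cannot be told apart.

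All 10 factors were expressed above 1 FPKM on average and entered the comparison. Sox18 had the highest mean over the 6 samples with 388 FPKM, ahead of Ets1 with 309.7 FPKM and Elk3 with 123 FPKM. Fli1 (82.6 FPKM), Sox7 (81.4 FPKM) and Lmo2 (59.1 FPKM) formed a middle tier, followed by Sox17 (22.1 FPKM), Gata2 (14.8 FPKM) and Erg (12.9 FPKM). Tal1 was lowest with 3.47 FPKM. Of the 9 pairs of neighbours in this order, 6 kept the same order within each of the 6 samples. Sox18 exceeded Ets1 by only 1.10-fold to 1.48-fold within a sample, whereas Erg exceeded Tal1 by 2.81-fold to 5.08-fold. The order of Fli1 and Sox7, of Sox7 and Lmo2, and of Gata2 and Erg turned in 1 sample each, so these neighbours did not differ beyond their spread. The order by group mean was the same in WT and Apelin-KO ECs except that Sox7 stood before Fli1 in WT and after it in Apelin-KO ECs.

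**Figure D1:**
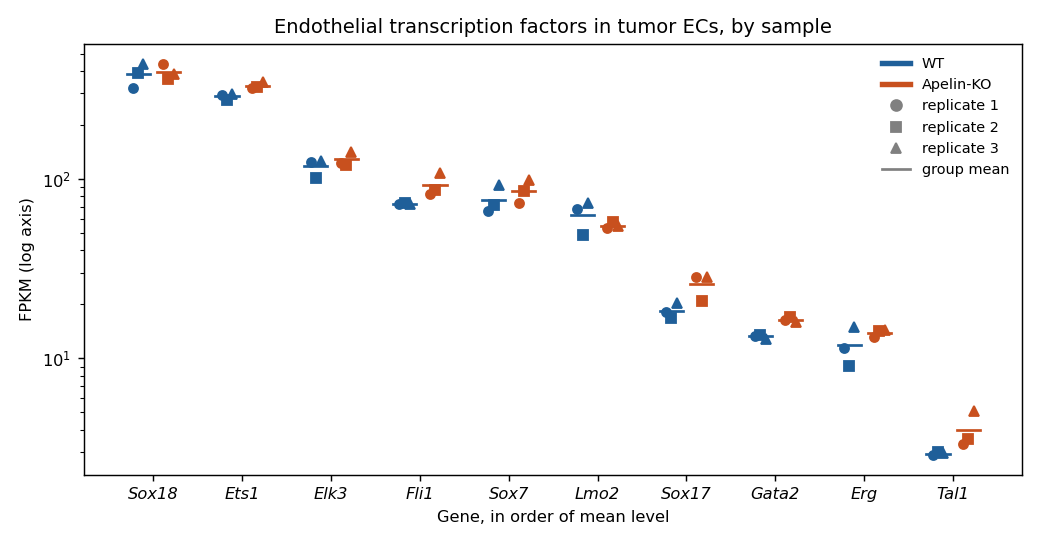
FPKM of the 10 transcription factors in each sample, on a log axis, with genes ordered by their mean over all samples, WT in blue, Apelin-KO in orange, symbols for replicates and lines for group means. Levels run from 2.88 FPKM for Tal1 to 439.6 FPKM for Sox18, and the WT and Apelin-KO samples are apart for Ets1, Fli1, Sox17, Gata2 and Tal1.

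No factor differed between the genotypes after adjustment over all genes. WT and Apelin-KO were compared on log2(FPKM + 1) with limma, a linear model that moderates the variance of each gene, over the 10964 genes that averaged 1 FPKM or more. With Benjamini-Hochberg adjustment, 0 of the 10 factors had an adjusted p-value under 0.05, a threshold passed by 1 gene, or 0.00912% of those tested. At an unadjusted p-value under 0.05 there were 3 factors, Gata2, Sox17 and Fli1, all lower in WT ECs, where 4.25% of all genes tested passed in this direction, 5.17% in the other and 9.42% in either. Groups did not overlap for 5 factors, Fli1, Ets1, Tal1, Gata2 and Sox17, and in each of these every Apelin-KO sample lay above every WT sample, which held for 7.77% of all genes tested, against 6.61% in the other direction and 14.4% in either. The median log2 difference, WT minus Apelin-KO, was -0.22 over the 10 factors, or -0.14 without WT 2, and -0.01 over all genes tested. Of the 10 factors, 9 were below 0 and 1, Lmo2, was above it, where 52.5% of all genes tested were below 0. The factors were chosen with results of these data known, so these counts describe them and were not tested as a set.

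**Figure D2:**
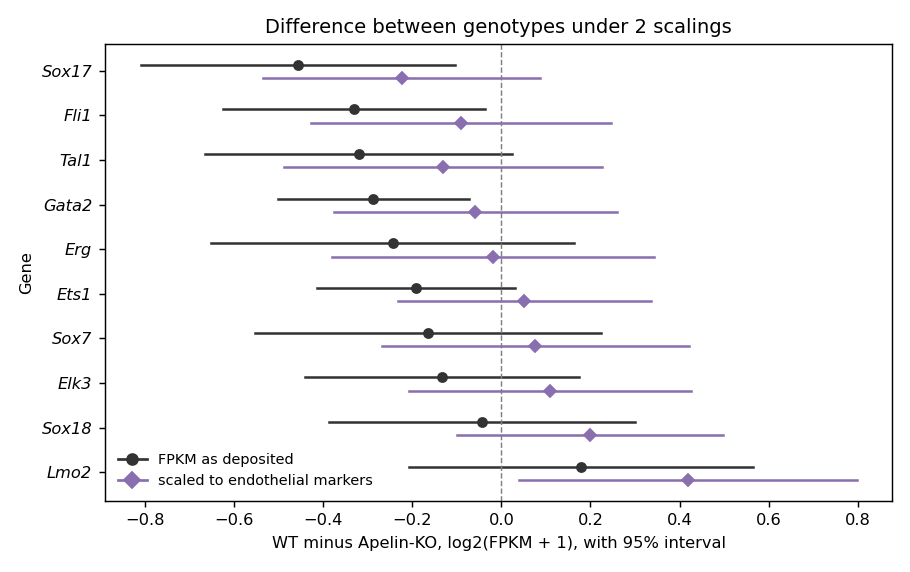
Log2 difference between genotypes, WT minus Apelin-KO, for each factor with its 95% interval from limma, from the FPKM as deposited (circles) and after scaling each sample to 15 endothelial markers (diamonds). The circles run from -0.46 for Sox17 to 0.18 for Lmo2, and the diamonds from -0.22 for Sox17 to 0.42 for Lmo2.

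Among the ETS factors, Fli1 and Ets1 did not overlap between the groups. Fli1, on chromosome 9 from 32422204 to 32542861 of GRCm38, was 72.1, 73.5 and 72.8 FPKM in WT 1, 2 and 3 and 82.3, 87.0 and 108 FPKM in Apelin-KO 1, 2 and 3. The WT samples were nearly identical, with 72.8 ± 0.663 FPKM (SD, n = 3), while the Apelin-KO samples were higher and more spread, with 92.5 ± 13.7 FPKM (SD, n = 3). The log2 difference was -0.33 (standard error 0.12, 95% interval -0.63 to -0.04, adjusted p = 0.513 from limma). Its unadjusted p-value from limma was 0.0326 with all samples and 0.0786, 0.0683 and 0.0707 without WT 1, WT 2 and WT 3, while the log2 difference stayed at -0.32, -0.34 and -0.33. Without Apelin-KO 3 the log2 difference was -0.21, with an unadjusted p = 0.0733 from limma.

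Ets1, the founding member of the family, neighbours Fli1 on chromosome 9, from 32636221 to 32757820. Its level was 293, 276 and 298 FPKM in WT 1, 2 and 3 and 321, 323 and 347 FPKM in Apelin-KO 1, 2 and 3, and the groups did not overlap. The means were 289 ± 11.2 FPKM in WT and 330.3 ± 14.3 FPKM in Apelin-KO ECs (SD, n = 3), with a log2 difference of -0.19 (standard error 0.09, 95% interval -0.41 to 0.03, adjusted p = 0.573 from limma). This value rested on an estimated 12130 to 16177 reads per sample.

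Erg and Elk3 overlapped between the groups. Erg, which maintains quiescent endothelium, lies on chromosome 16 from 95359169 to 95586593 and was 11.4, 9.02 and 14.98 FPKM in WT 1, 2 and 3 and 13.2, 14.2 and 14.3 FPKM in Apelin-KO 1, 2 and 3. WT samples held both the highest and the lowest value, and the Apelin-KO samples lay between them. The log2 difference was -0.24 (standard error 0.17, 95% interval -0.65 to 0.16, adjusted p = 0.686 from limma). Single WT samples moved this value both ways, since the log2 difference was -0.42 without WT 3, with an unadjusted p = 0.0233 from limma, and -0.08 without WT 2, with an unadjusted p = 0.608. Elk3, on chromosome 10 from 93247414 to 93311135, was 125, 101 and 127 FPKM in WT and 123, 120.3 and 142 FPKM in Apelin-KO samples, with a log2 difference of -0.13 (standard error 0.13, 95% interval -0.44 to 0.18, adjusted p = 0.774 from limma). The lowest value was that of WT 2 and the highest that of Apelin-KO 3, with the other samples close together, and the log2 difference was -0.03 without WT 2 and -0.06 without Apelin-KO 3. Elk3 shares 316 exonic bases with Cdk17 on the opposite strand, and whether the counting used the strand is not given in the sources used here.

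Of the SOXF genes, Sox17 was apart between the groups, and Sox7 and Sox18 overlapped. The intervals of the 3 differences overlap widely, and whether these genes differ from each other was not tested. Sox17, which promotes arterial fate, lies on chromosome 1 from 4490931 to 4497354. It was 18.1, 16.9 and 20.3 FPKM in WT 1, 2 and 3 and 28.2, 20.8 and 28.5 FPKM in Apelin-KO 1, 2 and 3. Apelin-KO 2 stood only just above WT 3, and the other Apelin-KO samples were well above all WT samples. The means were 18.4 ± 1.75 FPKM in WT and 25.9 ± 4.36 FPKM in Apelin-KO ECs (SD, n = 3), and the log2 difference of -0.46, the largest of the 10 factors, had a standard error of 0.15 and a 95% interval from -0.81 to -0.11 (adjusted p = 0.501 from limma). The unadjusted p-value from limma was 0.0180 with all samples and 0.0606, 0.0581 and 0.0577 without WT 2, Apelin-KO 1 and Apelin-KO 3. Sox17 shares 804 exonic bases with the transcript Gm37587 on the opposite strand.

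Sox18, on chromosome 2 from 181669836 to 181671640, acts in lymphatic and vascular development. It was 322, 388 and 439.6 FPKM in WT 1, 2 and 3 and 437, 359 and 384 FPKM in Apelin-KO 1, 2 and 3. The Apelin-KO values all fell within the range of the WT values. Its log2 difference was -0.04 (standard error 0.15, 95% interval -0.39 to 0.30, adjusted p = 0.945 from limma), and the sign turned to 0.08 without WT 1 and to 0.03 without Apelin-KO 1. Sox7, on chromosome 14 from 63943673 to 63950732, was 66.6, 71.7 and 92.0 FPKM in WT and 73.3, 86.0 and 98.6 FPKM in Apelin-KO samples. Replicate 3 was the highest in both groups, and the log2 difference was -0.17 (standard error 0.16, 95% interval -0.55 to 0.22, adjusted p = 0.779 from limma). It was -0.07 without WT 1, -0.06 without Apelin-KO 3, -0.27 without Apelin-KO 1 and -0.30 without WT 3, where the groups no longer overlapped.

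In the group of Gata2, Tal1 and Lmo2, the first 2 were higher in every Apelin-KO sample and Lmo2 was not. Gata2, on chromosome 6 from 88193891 to 88207032, was 13.3, 13.5 and 12.9 FPKM in WT 1, 2 and 3 and 16.3, 17.1 and 15.9 FPKM in Apelin-KO 1, 2 and 3. Both groups were tight, with 13.3 ± 0.326 FPKM in WT and 16.4 ± 0.609 FPKM in Apelin-KO ECs (SD, n = 3). The log2 difference was -0.29 (standard error 0.09, 95% interval -0.50 to -0.07, adjusted p = 0.501 from limma). With an unadjusted p = 0.0155, Gata2 had the lowest p-value of the 10 factors in limma, and it was 0.0518 and 0.0502 without WT 3 and Apelin-KO 2.

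Tal1, on chromosome 4 from 115056426 to 115071755, was 2.88, 3.003 and 2.95 FPKM in WT 1, 2 and 3 and 3.31, 3.55 and 5.09 FPKM in Apelin-KO 1, 2 and 3. The WT samples differed little, and Apelin-KO 3 stood above the other Apelin-KO samples as it did for Fli1. The log2 difference was -0.32 (standard error 0.15, 95% interval -0.66 to 0.02, adjusted p = 0.542 from limma), and it was -0.17 without Apelin-KO 3 and -0.42 without Apelin-KO 1, where the unadjusted p from limma was 0.0319. An estimated 108 to 193 reads per sample stood behind Tal1, the fewest of the 10 factors.

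Lmo2, on chromosome 2 from 103957986 to 103981878, ran the other way on average, with 67.9, 48.4 and 73.4 FPKM in WT 1, 2 and 3 and 53.0, 57.2 and 54.5 FPKM in Apelin-KO 1, 2 and 3. The Apelin-KO values were close together and lay between WT 2 and the other WT samples. The log2 difference was 0.18 (standard error 0.16, 95% interval -0.21 to 0.57, adjusted p = 0.755 from limma). It was 0.36 without WT 2, with an unadjusted p = 0.0213 from limma, but 0.12 without WT 1 and 0.06 without WT 3, with unadjusted p-values of 0.560 and 0.724.

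Since Tal1 and Gata2 were both apart between the groups and can act together, the sequence before their first annotated start site is shown, from the RefSeq annotation of GRCm38, where 4 of the 10 factors had a promoter entry. Capitals mark the ETS core GGAA and the GATA motif GATAA on either strand, so that TTCC and TTATC are marked as well, and each run holds the 250 bases before the start, 5′ to 3′ on the plus strand, chr4:115056176-115056425 for Tal1 and chr6:88193641-88193890 for Gata2.
Tal1: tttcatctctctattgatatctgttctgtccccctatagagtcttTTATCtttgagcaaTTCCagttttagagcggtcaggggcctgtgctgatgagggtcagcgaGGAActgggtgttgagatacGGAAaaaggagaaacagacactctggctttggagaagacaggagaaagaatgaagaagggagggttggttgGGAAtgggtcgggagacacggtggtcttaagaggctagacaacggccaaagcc
Gata2: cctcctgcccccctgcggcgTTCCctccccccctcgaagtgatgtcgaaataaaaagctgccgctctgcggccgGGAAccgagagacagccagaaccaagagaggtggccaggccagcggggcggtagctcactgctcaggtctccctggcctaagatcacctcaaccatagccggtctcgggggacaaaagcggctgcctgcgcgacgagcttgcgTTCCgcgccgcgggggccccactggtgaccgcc
The Tal1 window held 4 matches to GGAA and 1 to GATAA, the latter as part of AGATAA, and the Gata2 window held 3 matches to GGAA and 0 to GATAA. Over 32851 promoter windows of the same length, 93.4% held GGAA, 22.6% held GATAA and 9.99% held AGATAA, so a match to GGAA sets these windows apart from few others. The Gata2 window was richer in G and C, at 67.2%, than the Tal1 window, at 48.8%. A second annotated window of Tal1, not shown, held 3 matches to GGAA and 0 to GATAA, at 62.8% G and C. That of Gata2 held 1 match to GGAA and 0 to GATAA, at 74.0% G and C.

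The factors were also set beside the endothelial markers. Over the 15 endothelial markers the median log2 difference was -0.23, close to the -0.22 of the factors, with 13 below 0 and 6 at an unadjusted p-value under 0.05, all lower in WT ECs. This count of 6 was 0 without WT 1, 0 without WT 2, 1 without Apelin-KO 3 and 3 without Apelin-KO 1, while the median stayed between -0.36 and -0.16 with each sample left out. When each sample was scaled to the geometric mean of these markers, 0 factors were apart between the groups in place of 5, and 0 had an adjusted p-value under 0.05 in limma, where 0.00911% of all genes passed. Of the 15 markers, 5 are also among the targets of these factors examined below, so the scaling is not independent of the factors. In that scaling 25.6% of all genes tested were apart in either direction and 0.738% were apart and lower in WT, and the median log2 difference of all genes moved from -0.01 to 0.21. The median of the factors was then 0.02, and 13.4% of all genes tested were below 0. Gata2, Fli1, Sox17, Tal1 and Erg stayed below 0 at -0.06, -0.09, -0.22, -0.13 and -0.02, while Ets1, Elk3, Sox7 and Sox18 turned to 0.05, 0.11, 0.08 and 0.20. At an unadjusted p-value under 0.05 there was then 1 factor, Lmo2, with a log2 difference of 0.42 (standard error 0.16, 95% interval 0.04 to 0.80, adjusted p = 0.252 from limma), where 18.6% of all genes tested passed in its direction, 0.492% in the other and 19.1% in either. Hematopoietic markers, whose median log2 difference was 1.21 before this scaling, were higher in WT. In the values as deposited this was the direction of Lmo2 and opposite to the other 9 factors. Over the 6 samples, the Pearson correlation with the mean of these markers was -0.07 for Lmo2 and between -0.89 and -0.38 for the other 9 factors. WT 2 had the highest sum of hematopoietic markers, 887 FPKM, and the lowest Lmo2, 48.4 FPKM. The part of hematopoietic markers in these values was not tested.

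Within a sample, the balance of the SOXF genes was set by Sox18. Sox18 made up 79.1%, 81.4% and 79.6% of the summed SOXF FPKM in the WT samples, against 81.1%, 77.0% and 75.1% in the Apelin-KO samples, with groups that overlapped. For Sox17 this share came to 4.46%, 3.53% and 3.68% in the WT samples, against 5.25%, 4.47% and 5.57% in the Apelin-KO samples. WT 1 and Apelin-KO 2 were almost level, so the groups were apart by a narrow margin.

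Among the ETS factors, Ets1 held between 56.7% and 60.1% of the summed FPKM of Erg, Fli1, Ets1 and Elk3 in the 6 samples. Fli1 was 4.86-fold to 8.14-fold higher than Erg in WT and 6.11-fold to 7.55-fold higher in Apelin-KO samples, with groups that overlapped. Lmo2 exceeded Gata2 by 5.08-fold, 3.58-fold and 5.69-fold in the WT samples, against 3.26-fold, 3.35-fold and 3.44-fold in the Apelin-KO samples. The WT ratios were all higher here, though WT 2 was near the Apelin-KO samples. The same held for Lmo2 against Tal1, with ratios of 23.5, 16.12 and 24.9 for the WT samples against 16.0, 16.09 and 10.7 for the Apelin-KO samples, where WT 2 was barely above Apelin-KO 2. These ratios were chosen after the levels had been seen and carry no test.

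**Figure D3:**
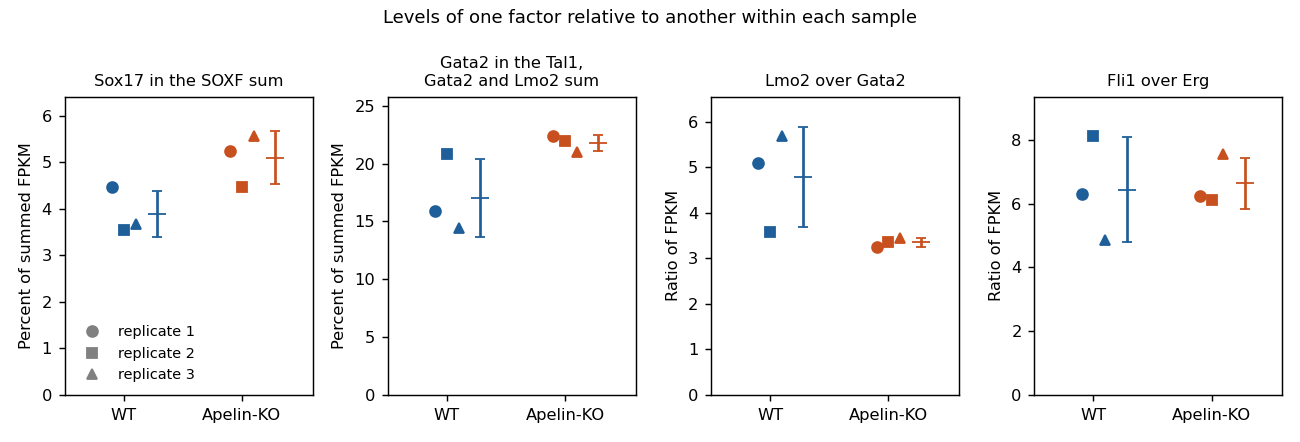
Share of Sox17 in the summed FPKM of the SOXF genes, share of Gata2 in the sum of Tal1, Gata2 and Lmo2, and the ratios of Lmo2 to Gata2 and of Fli1 to Erg, in each WT (blue) and Apelin-KO (orange) sample, with the mean and SD of 3 samples to the right of the points. WT and Apelin-KO samples are apart in the first 3 panels, with WT 2 near the Apelin-KO samples for Lmo2 over Gata2, and overlap for Fli1 over Erg.

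The wider families gave a background for these genes. Of 22 other ETS genes, 14 were tested, 10 of them below 0 with a median log2 difference of -0.09, which was between -0.05 and -0.04 without WT 2, Apelin-KO 2 or Apelin-KO 3. Only Spi1, which encodes the myeloid factor PU.1, had an unadjusted p-value under 0.05, a count of 1 that was 2 without Apelin-KO 1 or Apelin-KO 2. Its level was 5.22, 6.38 and 2.12 FPKM in WT and 1.79, 1.12 and 1.402 FPKM in Apelin-KO samples, with a log2 difference of 1.11 (standard error 0.31, adjusted p = 0.501 from limma). Spi1 thus ran with the hematopoietic markers. Ets2, the closest relative of Ets1, had the highest level of the list with 104 ± 10.5 FPKM in WT and 123 ± 33.3 FPKM in Apelin-KO ECs (SD, n = 3). Etv2, which starts the endothelial programme in the embryo, was listed at 0 in 5 of the 6 samples.

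Of 16 other SOX genes, 4 were tested, and Sox4 was the highest with 41.6 ± 5.39 FPKM in WT and 36.5 ± 3.30 FPKM in Apelin-KO ECs (SD, n = 3). Sox11 was 2.22, 1.37 and 2.49 FPKM in WT and 4.09, 2.76 and 3.88 FPKM in Apelin-KO samples, with a log2 difference of -0.60 (standard error 0.19, adjusted p = 0.501 from limma). Sox9, a factor of cartilage and epithelium, was 9.87, 7.85 and 2.78 FPKM in WT and 1.24, 3.15 and 3.20 FPKM in Apelin-KO samples, with a log2 difference of 1.07 (standard error 0.43, adjusted p = 0.520 from limma). Only these 2 had an unadjusted p-value under 0.05, and that count ran from 1 to 3 with each sample left out. Of the 5 other GATA genes, none reached a mean of 1 FPKM, and Gata1, the erythroid and megakaryocytic member, was listed at 0 in all 6 samples. Gata3 was the highest of them with 0.736 ± 0.188 FPKM in WT and 0.484 ± 0.140 FPKM in Apelin-KO ECs (SD, n = 3). Gata2 thus had by far the highest level of the GATA genes in these sorted cells.

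Among 9 partners of TAL1 and LMO2, 8 were tested and 4 had an unadjusted p-value under 0.05, with a median log2 difference of -0.18. Without WT 2 the count was 1, and without Apelin-KO 3 it was 2 and the median was -0.12. Ldb1, which encodes the protein that joins LMO2 into complexes, was 30.4, 26.5 and 28.9 FPKM in WT and 35.0, 34.1 and 38.9 FPKM in Apelin-KO samples, with a log2 difference of -0.32 (standard error 0.11, adjusted p = 0.501 from limma). Cbfa2t3, a corepressor bound to TAL1 complexes and the fourth of these genes, was lower in every WT sample as well, with a log2 difference of -0.40 (standard error 0.13, adjusted p = 0.501 from limma). Zfpm1, which encodes the GATA cofactor FOG1, was 4.13, 4.79 and 10.2 FPKM in WT and 13.4, 14.1 and 9.89 FPKM in Apelin-KO samples, so that WT 3 and Apelin-KO 3 overlapped. Runx1, a factor of blood formation, ran the other way at 3.82, 3.71 and 2.21 FPKM in WT and 0.936, 1.70 and 1.58 FPKM in Apelin-KO samples, with a log2 difference of 0.81 (standard error 0.20, adjusted p = 0.501 from limma). Tcf4, an E protein that pairs with TAL1, had the highest level, 82.4 ± 9.40 FPKM in WT and 91.0 ± 8.08 FPKM in Apelin-KO ECs (SD, n = 3). Of the 9 genes in this list, Lyl1, a close relative of Tal1, stayed below a mean of 1 FPKM.

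Over 10 other regulators of endothelium, 9 were below 0 with a median log2 difference of -0.12, which was -0.07 without Apelin-KO 3 and -0.18 without WT 3. Meox2 alone had an unadjusted p-value under 0.05, a count that ran from 0 to 3 with each sample left out, and was 18.4, 20.2 and 17.1 FPKM in WT and 19.7, 25.6 and 30.4 FPKM in Apelin-KO samples. Epas1, which encodes the hypoxia factor HIF2A, had the highest level, 159 ± 25.4 FPKM in WT and 196 ± 13.4 FPKM in Apelin-KO ECs (SD, n = 3), with a log2 difference of -0.31 (standard error 0.14, adjusted p = 0.531 from limma).

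Genes known as targets of these factors were next compared. Of 16 such genes, of which 5 are also among the endothelial markers, 13 were below 0, and the median log2 difference was -0.19, which was -0.10 without WT 2. Cdh5 was 172, 155 and 214 FPKM in WT and 219, 232 and 294 FPKM in Apelin-KO samples, apart by a small gap between WT 3 and Apelin-KO 1, with a log2 difference of -0.46 (standard error 0.17, adjusted p = 0.512 from limma). Tie1, which encodes a receptor partner of TEK, was 295, 270.4 and 323 FPKM in WT and 367, 344 and 407 FPKM in Apelin-KO samples, with a log2 difference of -0.33 (standard error 0.12, adjusted p = 0.509 from limma). Plvap, a component of endothelial fenestrae, had the highest level of the list with 1702 ± 217 FPKM in WT and 2077 ± 163 FPKM in Apelin-KO ECs (SD, n = 3). Vcam1, an adhesion molecule for leukocytes, ran the other way at 54.9, 85.9 and 45.6 FPKM in WT and 21.2, 36.5 and 36.2 FPKM in Apelin-KO samples, with a log2 difference of 0.96 (standard error 0.29, adjusted p = 0.501 from limma). An unadjusted p-value under 0.05 was found for 4 of the 16 targets, with Tie1, Cdh5 and Vwf lower in WT and Vcam1 higher, and for none after adjustment in limma. This count of 4 was 1 without WT 2, 1 without Apelin-KO 3, 2 without WT 1 and 6 without WT 3.

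**Figure D4:**
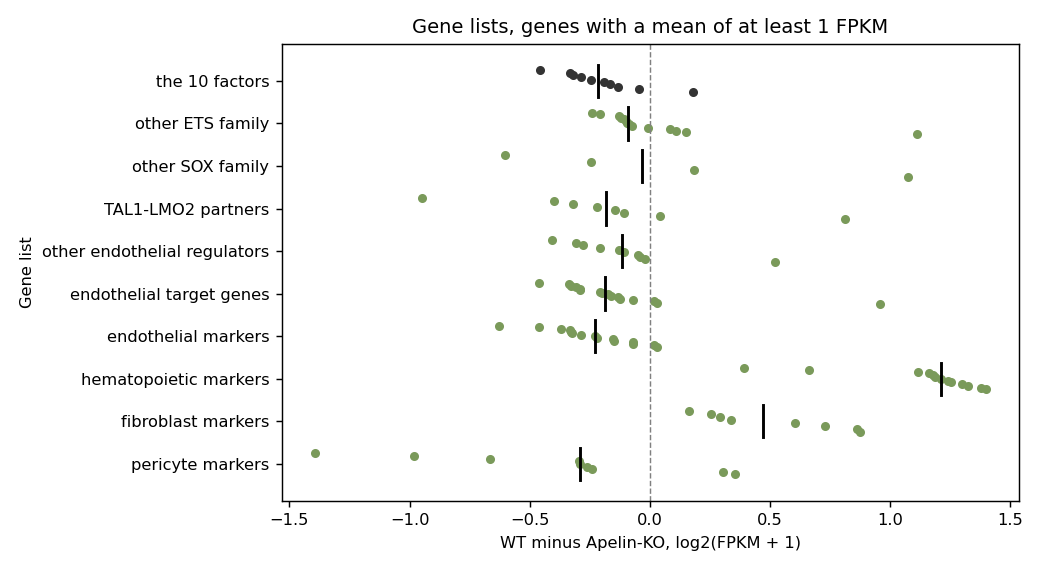
Log2 difference between genotypes, WT minus Apelin-KO, of each tested gene in the 10 factors and in 9 other gene lists, with a point per gene and a black bar at the median of each list. The factors (-0.22), the target genes (-0.19) and the endothelial markers (-0.23) lie to the left of 0, and the hematopoietic markers (1.21) to the right.

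Other cells that use these factors were looked for through their markers. Of 8 platelet and megakaryocyte markers, 2 were tested, and the summed FPKM were between 8.58 and 10.8 in WT and between 7.15 and 8.99 in Apelin-KO samples, with Pf4 the highest. Of 8 mast cell markers, Mcpt4, Fcer1a and Ms4a2 were at 0 in all samples, and Kit, which ECs can also express, made up most of a sum between 49.3 and 56.9 FPKM in WT and between 45.5 and 83.5 FPKM in Apelin-KO samples. The 7 erythroid markers found summed to between 7.91 and 22.0 FPKM in WT and between 33.2 and 66.5 FPKM in Apelin-KO samples, which did not overlap and ran in the direction of Gata2 and Tal1. Their part in these values was not tested. The sum was made up mostly of Epor, the erythropoietin receptor, and the globin genes Hbb-bs and Hba-a1. Of these, Epor and Hbb-bs were apart between the groups and Hba-a1 was not, with between 0.963 and 11.7 FPKM in WT and between 5.19 and 14.0 FPKM in Apelin-KO samples. Hbb-bs was between 0.023 and 7.93 FPKM in WT and between 16.2 and 32.6 FPKM in Apelin-KO samples. Lymphatic endothelial markers, which include the SOX18 target Prox1, summed to 443, 193 and 232 FPKM in WT 1, 2 and 3 and to between 182 and 294 FPKM in Apelin-KO samples, with 0 of 7 at an unadjusted p-value under 0.05 in limma and 1 without WT 3. Their median log2 difference was 0.45, and 0.13 without WT 1 or without Apelin-KO 1. Summed pericyte markers were between 150.5 and 187 FPKM in WT and between 199 and 226 FPKM in Apelin-KO samples, which did not overlap either. Most of that sum came from Kcnj8 and Abcc9, each of which overlapped between the groups. Of the 9 pericyte markers tested, 7 were below 0, with 3 of them, Rgs5, Higd1b and Ndufa4l2, at an unadjusted p-value under 0.05, and 2, Cspg4 and Tagln, were above 0 at 0.35 and 0.30. Fibroblast markers summed to between 198 and 347 FPKM in WT and between 132 and 206 FPKM in Apelin-KO samples. All 8 of them that were tested were higher in WT on average, with a median log2 difference of 0.47, and 4, Dcn, Col3a1, Col1a1 and Pdgfra, had an unadjusted p-value under 0.05, with Dcn apart between the groups. That count ran from 1 to 7 with each sample left out, and was 1 without WT 1, WT 2 or Apelin-KO 1 and 7 without WT 3. The fibroblast median was between 0.37 and 0.71 with each sample left out. Of the 4 fibroblast markers below 1 FPKM, Lum, Dpt and Mfap5 were higher in WT on average. Fap ran the other way, with 0.078, 0.133 and 0.043 FPKM in WT and 0.468, 0.427 and 0.337 FPKM in Apelin-KO samples. Of 11 tumor epithelial markers only Krt20 was tested, with 8.82 ± 2.27 FPKM in WT and 13.7 ± 6.22 FPKM in Apelin-KO ECs (SD, n = 3).

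Genes that followed the factors from sample to sample were found by comparing each gene with the mean log2(FPKM + 1) of the 10 factors. In the WT samples that mean came to 5.56, 5.48 and 5.72, against 5.73, 5.73 and 5.89 in the Apelin-KO samples. The 5 most alike of 7869 genes that averaged 5 FPKM or more were N4bp3, Cdh5, Rab5c, Tmem255a and Fam8a1, with Pearson correlations between 0.989 and 0.994 over 6 samples. As a description only, 309 genes were above 0.9, and 6 points that share libraries and genotype can allow many close matches. Cdh5 in this list is an established target of ERG and the other ETS factors, and Tmem255a was 85.3, 79.1 and 119 FPKM in WT and 134, 123 and 178 FPKM in Apelin-KO samples.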

How the data were processed

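Per the labels and the study's methods, stranded mRNA libraries were sequenced in a 75-base single-end mode, mapped to mm10 with TopHat2, Bowtie2 and SAMtools, and summarised by the authors as FPKM with Cufflinks 2.2.1. The annotation and the strand setting are not given in the sources used here. The deposited FPKM were used unchanged, without counts.

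Genes averaging 1 FPKM or more were compared on log2(FPKM + 1), which understates changes of low genes, with limma 3.58.1 in R 4.3.3 (two-sided, Benjamini-Hochberg adjustment). The study names a two-sided test without moderation, run as an alternative. With 3 samples a group, an exact permutation p cannot fall below 0.1. The comparison was tested on simulated data.

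The 10 factors and the lists were chosen with earlier results of these data known. Named from the family, partner, regulator and target lists were up to 3 genes with the lowest unadjusted p under 0.05 and the gene with the highest level. Chosen after their values were seen were Cbfa2t3, Etv2, Lyl1, Gata1, Pecam1, Prox1, Vwf, Hba-a1, Abcc9, Cspg4, Tagln, Pdgfra, Fap, Lum, Dpt, Mfap5 and the mast cell markers. Depth was estimated from genes with 1 annotated transcript over 700 bases in GENCODE M21, assuming fragments of 200 bases. At that depth, 68.4% to 71.8% of low values came within 0.1 of whole reads, and 20% are expected at random. Reads per gene are estimates from the longest transcript. Positions are those of GENCODE on GRCm38, the assembly also called mm10. Ahsp was not found under its symbol. Alternatives changed the pseudocount, filter, scaling, variance, block and samples.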

Additional observations from a re-analysis of the deposited data

How the results depend on the processing

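The count of factors with an adjusted p-value under 0.05 was 0 in every alternative run with limma or with each gene's own variance, with 3 at an unadjusted p-value under 0.05 in the comparison as reported and between 1 and 4 in the alternatives. With each sample left out in turn, this count of 3 was between 1 and 3, and it was 1 without Apelin-KO 3. The count of 5 factors apart between groups was between 5 and 7, the median of -0.22 was between -0.29 and -0.14, and the 6 ordered neighbours were between 6 and 8. With fewer samples, groups come apart and orders hold more easily, and the share of all genes apart was not computed for these counts. With endothelial marker scaling, 1 factor had an unadjusted p-value under 0.05, 0 were apart, and the median was 0.016, since that scaling divides by genes that were themselves lower in WT. In it the log2 differences of Ets1, Elk3, Sox7 and Sox18 reversed to 0.051, 0.11, 0.076 and 0.20. With single samples left out, Sox18 ran from -0.15 without WT 3 to 0.076 without WT 1, and it was 0.03 without Apelin-KO 1. The cause was not tested. Other pseudocounts, filters and variances, and scaling to the median gene, changed no direction among the factors tested. At a filter of 5 FPKM, Tal1 was not tested, and 4 factors were apart between the groups. Without a filter on low values, the median of all genes turned from -0.01 to 0.0032 and that of the other SOX genes from -0.03 to 0.01. Deviations from the group means had correlations of -0.14, 0.21 and -0.02 between same-numbered WT and Apelin-KO samples, and between -0.20 and 0.21 across numbers. The labels state no pairing, and with 3 samples a group these values cannot decide whether the replicate numbers pair samples. The order of levels was recomputed without each sample after the data had been seen. With the replicate block, 2 factors in place of 3, Gata2 and Sox17, had an unadjusted p-value under 0.05, and that of Fli1 was 0.0519 from limma. In it 5 factors were apart and the median was -0.22. Depth limits Tal1 most, which had the fewest estimated reads.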
